A study of Mus musculus with 4 samples.

Results

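Channel genes were picked by name from a table of RNA-RNA contacts in mouse spermatogonial stem cells. An RNA was included when its symbol began with Kcn and a letter (potassium channels), with Cacn and a, b or g (voltage-gated calcium channels), with Scn and a digit (sodium channels), or with Trpc, Trpm or Trpv and a digit (transient receptor potential, or TRP, channels). The antisense RNA Kcnq1ot1 was left out. The rule gave 70 of the 13318 RNAs in the table, and 396 of its 56636 pairs held at least 1 of them. All 70 matched the reference gene table. One of them, Trpc4ap, encodes a protein that binds a TRP channel and is not itself a channel. The others were labelled by symbol alone, and not all of them encode a pore.

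The contacts were measured by RIC-seq, in which RNAs that lie close together in fixed cells are joined and read as 1 chimeric fragment. There were 2 libraries labelled differentiation and 2 control libraries, all from spermatogonial stem cells, the germline stem cells of the testis. The genotype entry reads "Differentiation" for the differentiation libraries and "WT" for the controls. The sources used here did not give the inducer, its duration, the strain and the age of the animals, nor whether libraries came from separate cultures. A pair was listed when each of the 4 libraries held 1 count or more of it, so a contact lost completely in one group could not be seen here.

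Potassium channels let potassium leave the cell and set its resting voltage, and voltage-gated calcium and sodium channels open when that voltage changes. Each is built from a pore-forming subunit that conducts the ion and from auxiliary subunits that set its surface level and gating, while TRP channels respond to chemical and physical cues. These genes are best known from neurons and muscle, and many are very long, with most of their length in introns. In the male germline, calcium entry is best known for its part in sperm motility, which uses a dedicated channel named CatSper. The counts here join RNA to RNA, so neither channel proteins nor currents were measured, and fewer RNA molecules and fewer contacts per molecule cannot be told apart. Nor can fewer cells of a type be told apart from less RNA per cell.

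Counts in pairs that held a channel gene were 3188 and 4030 in the differentiation libraries and 6133 and 7629 in the control libraries. They made up 0.402% and 0.349% of all counts in differentiation, against 0.507% and 0.545% in control. Total counts over all pairs were 793129 and 1155923 in differentiation and 1209031 and 1400011 in control. Of the 396 pairs, 48 were contacts of an RNA with itself (within-RNA pairs), 9 held the nuclear RNA Neat1, 10 held the nuclear RNA Malat1 and 329 were other pairs. The 3 genes with most counts, Cacna1c, Kcnma1 and Kcnq5, held 56.7% of the channel counts, and 21 of the 70 had a summed count of at least 100. Counts are not divided by gene length, and the values below compare groups within a gene.

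The contact total of a gene is the summed count of all its pairs, given here in counts scaled by edgeR for library size (CPM). Of the 70 channel genes, 58 had enough counts for the test. In differentiation 1 of them was higher, Kcnn1, and 8 were lower: Kcnd2, Cacnb4, Cacna1c, Kcnc2, Kcnq5, Kcnt1, Kcnh1 and Cacna2d1 (edgeR quasi-likelihood test, adjusted p under 0.05 over all RNAs tested). Among all 10993 RNAs tested 5.44% were higher and 6.75% lower, and the counts by role below are to be read beside these shares. The median log2 change of the 58 was −0.07, with 27 above 0 and 31 below. Passing calls were therefore found among pore subunits of potassium and calcium channels and auxiliary subunits of calcium channels, and none of the tested potassium auxiliary, TRP, sodium, inward rectifier or two-pore-domain genes passed.

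**Figure D1:**
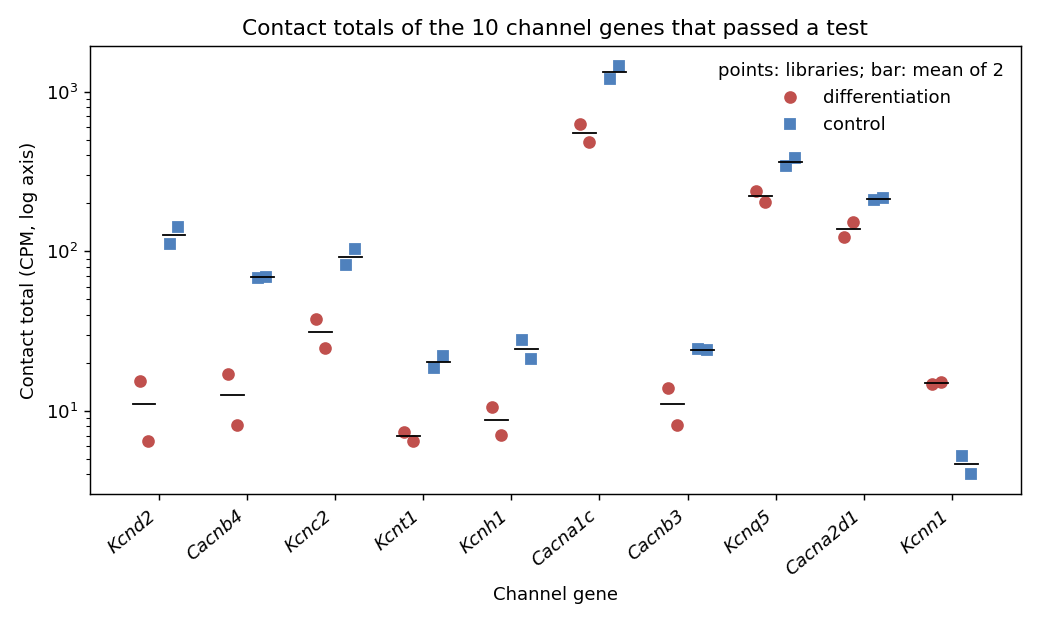
Contact totals in CPM (log axis) of the 10 channel genes that passed the test on all pairs or on the pairs without Neat1 and Malat1. Each point is a library, with differentiation left of control, and bars are means of 2 libraries. Kcnn1 lies higher in differentiation and the other genes lie lower. The genes were picked by the test on these same libraries, so the separation of the points is no further support.

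Kcnd2, a pore subunit of the fast-inactivating A-type potassium channels, had the lowest adjusted p of the channel genes. Its contact total was 15.5 and 6.48 CPM in differentiation, against 111 and 141 CPM in control. The groups were far apart, at a mean of 10.99 ± 6.37 CPM in differentiation and 126 ± 21.2 CPM in control (SD, n = 2 each). The log2 change was −3.61 (SE 0.33, edgeR adjusted p = 5.87e-05), and the call was kept under all 12 other settings tried. On raw counts this rested on 19 and 12 reads in differentiation and on 192 and 280 in control.

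All 4 listed pairs of Kcnd2 passed on their own, in the fit over pairs. Together they are the whole of its total, so they are not separate evidence. Contacts within the RNA held 13 and 2 counts in differentiation and 106 and 160 in control (log2 change −3.49, SE 0.53, adjusted p = 7.89e-04). The noncoding RNA Gm42418 was joined to Kcnd2 by 2 and 2 counts in differentiation and by 32 and 56 in control (−3.81, SE 0.62, adjusted p = 0.00148). The noncoding RNA Gm26917 gave 1 and 6 counts in differentiation and 25 and 36 in control (−2.55, SE 0.62, adjusted p = 0.0220), and Slc9a9, a sodium-proton exchanger gene, gave 3 and 2 in differentiation and 29 and 28 in control (−2.89, SE 0.64, adjusted p = 0.0132). The counts were thus low in both differentiation libraries for every partner. The within-RNA call alone did not pass with DESeq2 (adjusted p = 0.0725). Without differentiation library 2 the Slc9a9 pair missed the threshold (adjusted p = 0.0731), and without control library 2 so did the Gm26917 pair (adjusted p = 0.0950).

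Pore subunits of voltage-gated potassium channels differed from one another. Of 17 such genes listed, Kcnd2 included, 11 were tested, 4 were lower, none was higher, and their median log2 change was −0.72. Kcnc2, a pore subunit of fast-spiking neurons, stood at 37.5 and 24.8 CPM in differentiation, against 82.2 and 103 CPM in control (−1.60, SE 0.25, adjusted p = 0.00202). Contacts within Kcnc2 RNA held 31 and 38 counts in differentiation and 102 and 158 in control (−1.32, SE 0.31, adjusted p = 0.0176). They made up 75.1% of its contact total over the 4 libraries, so this call is largely the total tested again. Without control library 2 both calls were lost, at adjusted p = 0.109 for the total and 0.238 for the within-RNA pair.

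Kcnq5, which carries the slow M-type current, had 240 and 202 CPM in differentiation and 341 and 385 CPM in control. The groups did not overlap, and the fall was small (−0.72, SE 0.16, adjusted p = 0.0147). It missed the threshold without control library 1 (adjusted p = 0.118) or 2 (0.261), with column totals only (0.0568) and with between-RNA pairs only (−0.45, adjusted p = 0.162). Its within-RNA pair, with 228 and 272 counts in differentiation and 464 and 574 in control, did not pass (−0.46, adjusted p = 0.218) except without differentiation library 1 (adjusted p = 0.0449).

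Kcnh1, an ether-a-go-go type channel, had 10.6 and 7.02 CPM in differentiation and 27.8 and 21.2 CPM in control (−1.50, SE 0.40, adjusted p = 0.0298). It held only 13 counts in each differentiation library. The call was lost without control library 1 (adjusted p = 0.248), control library 2 (0.183) or differentiation library 2 (0.0983), with DESeq2 (0.0782), without the pairs of Gm42418 and Gm26917 (0.0693) and with between-RNA pairs only (0.112).

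Kcnd3, a paralog of Kcnd2, did not follow it. Its total was 146 and 161 CPM in differentiation, against 112 and 111 CPM in control, a difference that did not pass (0.46, SE 0.17, adjusted p = 0.110) but did without differentiation library 1 (adjusted p = 0.0280). Contacts within Kcnd3 RNA were higher, with 75 and 131 counts in differentiation and 74 and 79 in control. Scaled for library size these were 116 ± 13.3 CPM in differentiation and 59.5 ± 4.03 CPM in control (0.97, SE 0.27, adjusted p = 0.0482). That call is near the threshold and was lost with DESeq2 (adjusted p = 0.165) and without control library 1 (0.168), control library 2 (0.325), differentiation library 2 (0.140) or the pairs of Gm42418 and Gm26917 (0.0740), with column totals only (0.0889) and with the low-count filter removed (0.0922). The within-RNA counts of Kcnd3 are the same without the pairs of Gm42418 and Gm26917, so there only the rest of the fit changed. The difference between the changes of Kcnd2 and Kcnd3 was not tested.

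Promoters are shown for Kcnd2 and Kcnh1, whose totals were each lower, and for Kcnd3, whose total did not pass. These were taken because each gene has 1 start listed in the RefSeq table (GRCm38.p6). Each promoter runs 250 bases before to 50 after that start on the + strand. Kcnc2 and Kcnq5, which were also lower, are not shown. Kcnd2 lies at chr6:21215096-21215395, Kcnh1 at chr1:192190527-192190826 and Kcnd3 at chr3:105451640-105451939. The Kcnh1 start of that table lies inside the gene, whose annotated span begins further upstream at 192189144, while those of Kcnd2 and Kcnd3 are at the first base of the span. Capitals mark GC boxes (GGGCGG, or CCGCCC as its reverse complement).
Kcnd2: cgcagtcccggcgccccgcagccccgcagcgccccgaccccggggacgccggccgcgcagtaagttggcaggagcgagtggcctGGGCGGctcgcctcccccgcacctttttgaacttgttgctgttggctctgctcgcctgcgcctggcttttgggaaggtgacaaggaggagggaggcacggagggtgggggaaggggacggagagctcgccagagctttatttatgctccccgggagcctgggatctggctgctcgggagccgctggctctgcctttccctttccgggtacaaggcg
Kcnh1: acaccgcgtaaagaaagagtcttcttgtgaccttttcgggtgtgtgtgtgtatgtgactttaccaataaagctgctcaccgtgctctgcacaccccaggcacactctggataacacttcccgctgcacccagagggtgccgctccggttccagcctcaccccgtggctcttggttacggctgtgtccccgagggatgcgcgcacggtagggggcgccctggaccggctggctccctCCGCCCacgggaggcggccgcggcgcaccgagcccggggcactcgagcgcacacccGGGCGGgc
Kcnd3: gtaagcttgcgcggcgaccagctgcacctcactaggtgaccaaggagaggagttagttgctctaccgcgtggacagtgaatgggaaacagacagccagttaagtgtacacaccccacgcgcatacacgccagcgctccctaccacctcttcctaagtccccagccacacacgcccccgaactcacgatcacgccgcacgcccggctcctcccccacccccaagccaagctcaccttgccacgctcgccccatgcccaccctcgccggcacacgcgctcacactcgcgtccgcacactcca
The GC box was found 1 time in Kcnd2, 2 times in Kcnh1 and 0 times in Kcnd3. Of the 32851 promoters listed, 35.7% hold one on either strand, against 42.9% of the 84 promoters listed for 54 channel genes. The TATA box letters TATAAA, or TTTATA as their reverse complement, are in none of the 3, in 4.76% of the channel promoters and in 13.6% of all. GC content was 68.7% in Kcnd2, 66.0% in Kcnh1 and 64.0% in Kcnd3. Promoter activity was not measured in these libraries, and a link between a motif and the changes was not tested.

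Channels that open with calcium or sodium inside the cell moved in both directions, with 1 higher and 1 lower of 5 tested. Kcnn1, a small-conductance calcium-activated channel, was the single gene whose total was higher. It had 14.7 and 15.1 CPM in differentiation and 5.21 and 4.03 CPM in control, so that the differentiation libraries were nearly alike and both above the controls (1.68, SE 0.48, adjusted p = 0.0400). These are 18 and 28 counts in differentiation and 9 and 8 in control, all in contacts within Kcnn1 RNA. Leaving out the pairs of Gm42418 and Gm26917 therefore keeps the counts of Kcnn1 and changes only the rest of the fit. The call was lost without control library 1 (adjusted p = 0.173), control library 2 (0.321), differentiation library 2 (0.0907) or the pairs of Gm42418 and Gm26917 (0.0547), and with the low-count filter removed (0.0554).

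Kcnt1, a sodium-activated channel, had 7.34 and 6.48 CPM in differentiation and 18.5 and 22.2 CPM in control (−1.56, SE 0.41, adjusted p = 0.0286). It missed the threshold without control library 1 (adjusted p = 0.145), control library 2 (0.295), differentiation library 2 (0.0660) or the pairs of Gm42418 and Gm26917 (0.0507), and with between-RNA pairs only (−1.12, adjusted p = 0.293). Kcnma1, the pore of the large-conductance channel opened by calcium and voltage together, had the second most counts of all channel genes. Its total was 413 and 426 CPM in differentiation and 520 and 549 CPM in control, which did not pass (−0.35, SE 0.15, adjusted p = 0.150). Contacts within Kcnma1 RNA were nearly level, at 565 ± 4.60 CPM in differentiation and 578 ± 9.22 CPM in control (−0.03, SE 0.19, adjusted p = 0.953), where the CPM are those of the fit over pairs.

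Of the auxiliary potassium subunits none of 6 tested passed, and their median log2 change was −0.06. Kcnip1, a calcium-binding partner of the A-type pores encoded by Kcnd2 and Kcnd3, had 70.9 and 74.0 CPM in differentiation and 60.2 and 62.5 CPM in control (0.24, SE 0.20, adjusted p = 0.478). Among the two-pore-domain genes, which carry background potassium current, none of 3 tested passed, and Kcnk13 had 13.9 and 12.4 CPM in differentiation and 15.04 and 10.6 CPM in control.

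All 4 inward rectifier genes had a log2 change above 0 and none passed as a total. Kcnj4, with most counts of them, had 6.52 and 5.40 CPM in differentiation and 4.63 and 5.54 CPM in control (0.21, SE 0.55, adjusted p = 0.861). Kcnj3, a G-protein-gated rectifier, had 15 and 5 counts in differentiation and 2 and 1 in control, all within its RNA. As a pair this passed (3.26, SE 0.90, adjusted p = 0.0438), and as a total it did not (3.00, adjusted p = 0.0577). On 3 control counts the ratio of differentiation over control was 9.84, with an exact 95% counting interval of 2.92 to 51.7. Leaving out the pairs of Gm42418 and Gm26917 keeps the Kcnj3 counts and changes only the rest of the fit. The pair call was lost without differentiation library 1 (adjusted p = 0.498), control library 2 (0.169) or the pairs of Gm42418 and Gm26917 (0.0612), and with column totals only (0.0503).

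**Figure D2:**
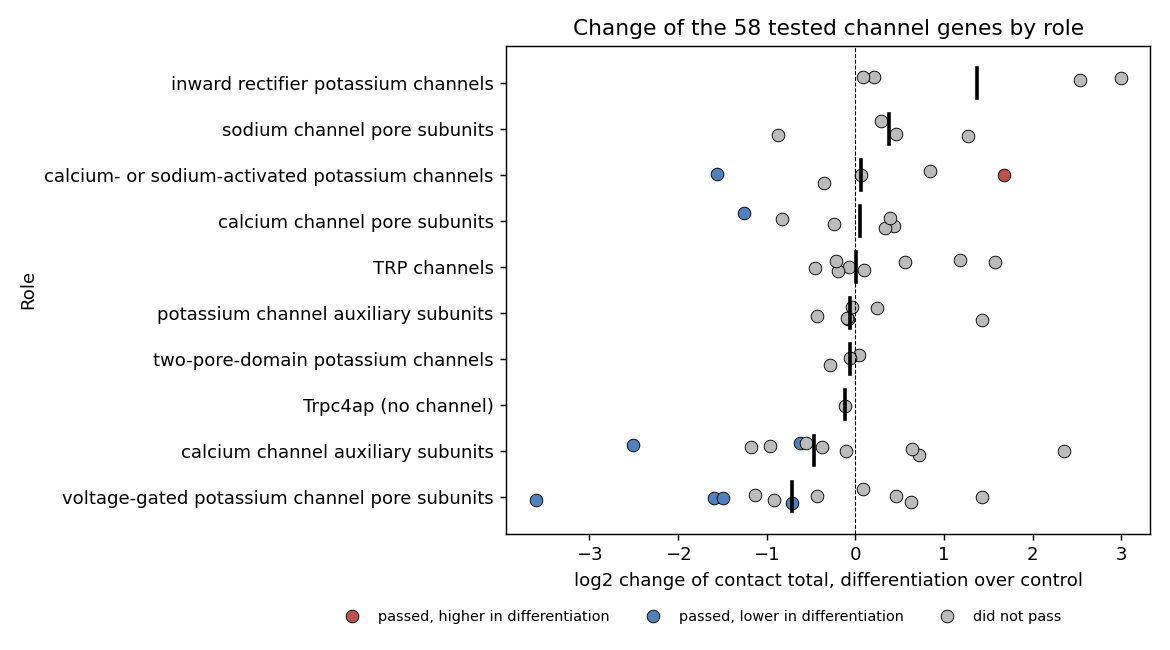
Log2 change of the contact total (differentiation over control) of the 58 tested channel genes, by role. Points are genes, coloured by the outcome of the test, and vertical lines are the medians of each role. The 4 voltage-gated potassium pores that passed are all lower, and the 4 inward rectifiers all lie right of 0 without passing.

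Cacna1c, the pore of the L-type calcium channel, held more counts and more partners than any other channel gene, with 125 listed pairs. Its contact total was 625 and 484 CPM in differentiation, against 1203 and 1444 CPM in control. The log2 change was −1.26 (SE 0.17, adjusted p = 9.43e-04), at a mean of 554 ± 99.2 CPM in differentiation and 1324 ± 170 CPM in control (SD, n = 2 each). Without control library 2 the adjusted p was 0.0715. The other 5 calcium pore genes, which include the P/Q-type Cacna1a and the T-type Cacna1h, did not pass, and the median of all 6 was 0.05.

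The fall of Cacna1c was seen within the RNA and with several partners, all of which are parts of its total. Within-RNA contacts held 293 and 320 counts in differentiation and 835 and 1270 in control (−1.16, SE 0.21, adjusted p = 0.00369). Contacts with Gm42418 held 49 and 59 counts in differentiation and 159 and 212 in control (−1.19, SE 0.27, adjusted p = 0.0146), and those with Gm26917 held 37 and 68 in differentiation and 158 and 182 in control (−1.15, SE 0.27, adjusted p = 0.0184). Each of these 3 lost its call without control library 2, at adjusted p = 0.1002, 0.162 and 0.125 in that order, and the Gm26917 pair also without control library 1 (0.0923). Contacts with Slc9a9, at 40 and 66 counts in differentiation and 118 and 140 in control, did not pass (−0.73, adjusted p = 0.141).

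Contacts of Cacna1c with 2 other genes of chromosome 6 were also lower. Ctnna2, which encodes an alpha-catenin of cell adhesion, gave 4 and 2 counts in differentiation and 39 and 27 in control (−2.85, SE 0.64, adjusted p = 0.0142). Sox5, a transcription factor gene, gave 2 and 4 counts in differentiation and 17 and 28 in control (−2.30, SE 0.64, adjusted p = 0.0462). Ctnna2 lies 40607 kb and Sox5 24631 kb from Cacna1c, which itself runs over chr6:118587240-119197384 (GRCm38.p6). The Ctnna2 call was lost without control library 1 (adjusted p = 0.0825) or differentiation library 2 (0.0686). The Sox5 call was lost whichever single library was left out (adjusted p = 0.0628 to 0.234) and with DESeq2 (0.123).

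Genes named as auxiliary subunits of calcium channels, Cacng genes included, gave 2 lower and 0 higher of 10 tested. Their median log2 change was −0.47. Cacnb4, a cytoplasmic beta subunit, had 17.1 and 8.10 CPM in differentiation and 68.3 and 69.0 CPM in control (−2.51, SE 0.33, adjusted p = 6.99e-04). The groups were well apart, and the control libraries nearly alike. Contacts within Cacnb4 RNA held 14 and 8 counts in differentiation and 79 and 71 in control (−2.16, SE 0.45, adjusted p = 0.00874). They made up 59.1% of its contact total over the 4 libraries, so both calls share counts. That pair call was kept under all 11 settings tried, whereas the total missed the threshold without control library 2 (adjusted p = 0.0552).

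Cacna2d1, the extracellular alpha-2-delta subunit to which gabapentin binds, had 122 and 152 CPM in differentiation and 209 and 216 CPM in control (−0.63, SE 0.17, adjusted p = 0.0369). The call was lost without control library 1 (adjusted p = 0.214), control library 2 (0.310) or differentiation library 1 (0.0720), with RLE scaling (0.0522) or column totals only (0.154), and with between-RNA pairs only (0.102). Cacnb2, another beta subunit, did not pass, at 148 and 105 CPM in differentiation and 166 and 161 CPM in control (−0.38, SE 0.20, adjusted p = 0.239), except without differentiation library 1 (adjusted p = 0.0226). Cacna2d2, chosen here after its values were seen, had 49 and 3 counts in differentiation and 7 and 7 in control, so that 1 library alone was high (2.35, SE 0.99, adjusted p = 0.152).

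No sodium channel pore passed among 4 tested, with a median of 0.37. Scn10a, known from pain-sensing neurons, had 25.3 and 23.2 CPM in differentiation and 18.5 and 16.6 CPM in control (0.46, SE 0.32, adjusted p = 0.402). No TRP channel total passed among 8 tested, with a median of 0.01 and 4 on either side of 0. Trpm3, with most counts among them, had 99.5 and 75.6 CPM in differentiation and 99.5 and 64.0 CPM in control (0.09, SE 0.24, adjusted p = 0.858). Trpv2, activated by stretch and by chemical ligands, passed for contacts within its RNA, with 14 and 24 counts in differentiation and 9 and 4 in control (2.05, SE 0.58, adjusted p = 0.0494). That call was lost without control library 2 (adjusted p = 0.363), differentiation library 2 (0.106) or the pairs of Gm42418 and Gm26917 (0.0649), with column totals only (0.0646) and with DESeq2 (0.137). The within-RNA counts of Trpv2 are likewise the same without the pairs of Gm42418 and Gm26917. Trpc4ap had 26.1 and 34.5 CPM in differentiation and 32.4 and 34.3 CPM in control (−0.12, adjusted p = 0.836).

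**Figure D3:**
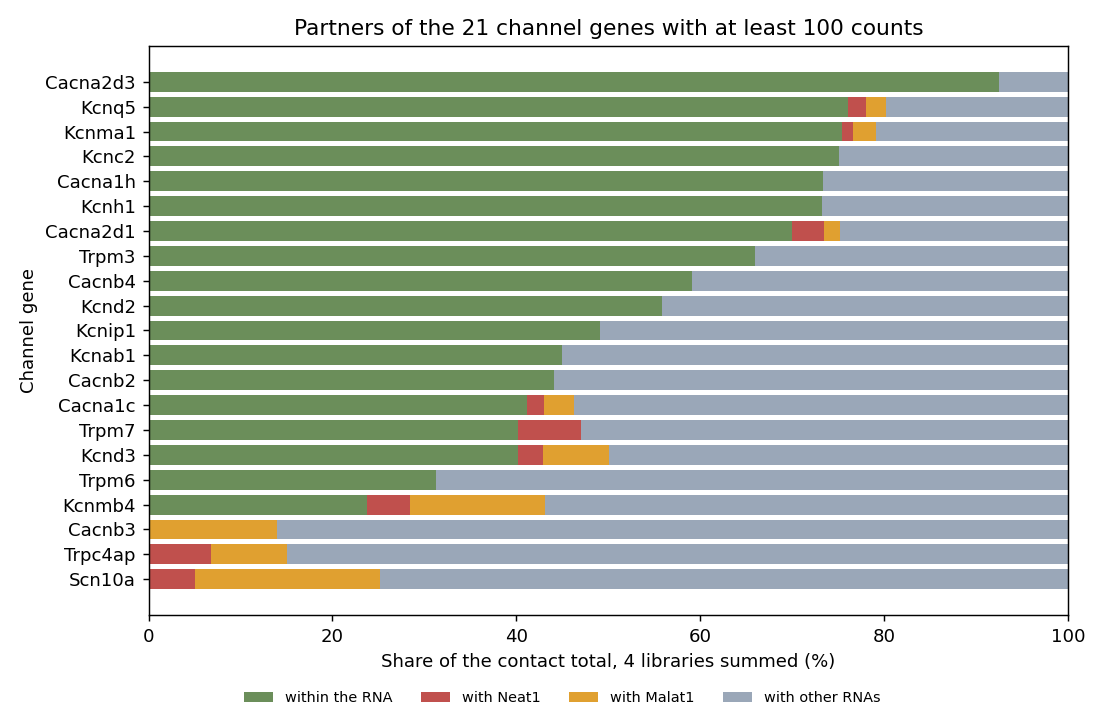
Partners of the 21 channel genes with a summed count of at least 100, as percent of each contact total over the 4 libraries. Colours are contacts within the RNA, with Neat1, with Malat1 and with other RNAs. Cacna2d3 stands at 92.5% within-RNA contacts and Scn10a, Trpc4ap and Cacnb3 at 0%.

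The genes differed in where their contacts lay. The share of the contact total within the RNA was 92.5% in Cacna2d3, 76.0% in Kcnq5 and 75.4% in Kcnma1, and 41.1% in Cacna1c. In all, 16 of the 70 genes had within-RNA pairs only and 22 had none. Over all channel genes together, within-RNA pairs held 58.9% and 54.7% of the counts in differentiation and 55.4% and 55.2% in control (difference 1.495 percentage points, exact permutation p = 1). Other pairs held 38.1% and 42.1% in differentiation and 40.1% and 40.1% in control (exact permutation p = 1). With 2 libraries against 2 the exact test cannot go below 0.33.

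In the fit over pairs 191 of the 396 were tested, 4 were higher and 12 lower, against 2.85% higher and 2.4% lower of all 31688 pairs tested. Within-RNA pairs gave 4 higher and 4 lower of 44, against 12.3% and 3.33% of all within-RNA pairs. The higher ones were Kcnn1, Kcnj3, Kcnd3 and Trpv2, and the lower ones Kcnd2, Cacna1c, Cacnb4 and Kcnc2. Their median log2 change was 0.28, against 0.44 over all within-RNA pairs. Pairs with RNAs other than Neat1 and Malat1 gave 0 higher and 7 lower of 132, against 1.42% and 1.02% in the table, with medians of −0.36 and 0.02. All 7 held Cacna1c or Kcnd2, so they are not independent of the totals above.

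**Figure D4:**
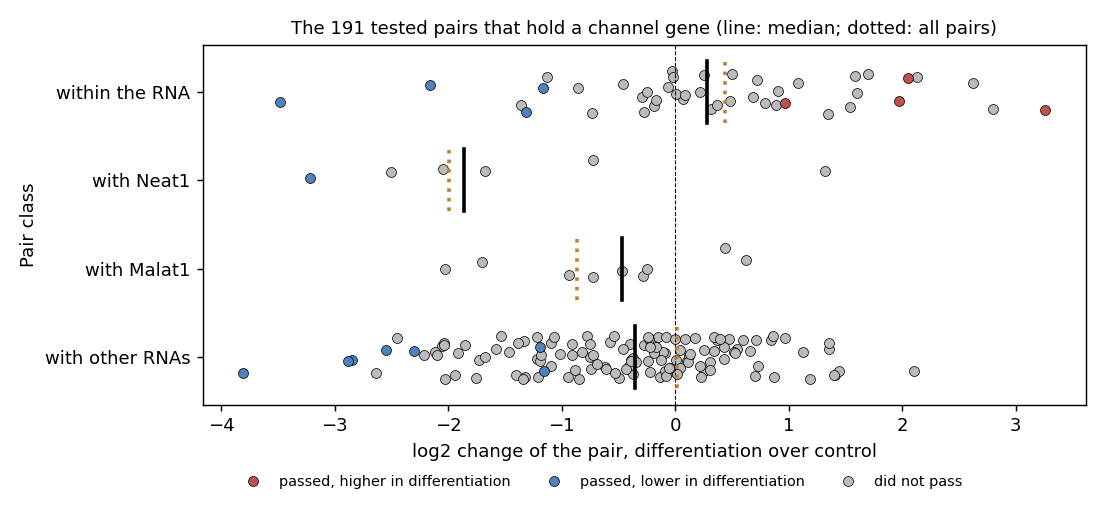
Log2 change (differentiation over control) of the 191 tested pairs that hold a channel gene, by class of pair. Solid lines are medians of the channel pairs and dotted lines those of all pairs of the class. Within-RNA pairs reach from −3.49 to 3.26, and every pair that passed outside that class is lower.

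Neat1, the scaffold of nuclear paraspeckles, was joined to 9 channel genes. Those pairs held 0.941% and 0.720% of the channel counts in differentiation and 2.09% and 1.80% in control, a difference of −1.11 percentage points (exact permutation p = 0.33, the smallest possible). In the whole table the same share was 0.625% and 0.488% in differentiation and 2.29% and 2.63% in control. Of 6 channel pairs tested 1 was lower and 0 higher, against 33.5% lower and 0.0% higher of all 801 Neat1 pairs. The pair with Cacna1c held 7 and 1 counts in differentiation and 58 and 58 in control (−3.22, SE 0.61, adjusted p = 0.00465), and kept its call under all 11 settings tried. The pairs with Cacna2d1 (−2.05, adjusted p = 0.0952), Kcnma1 (−2.50, adjusted p = 0.0681), Kcnd3 (−1.68, adjusted p = 0.241) and Kcnq5 (−0.72, adjusted p = 0.558) did not pass. The Kcnma1 pair passed without differentiation library 1 (adjusted p = 0.0147) and with the low-count filter removed (0.0498), among other settings.

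The Neat1 contacts of a gene were also set against its own other contacts. They fell more than the rest in 4 of 8 genes, against 52.7% of all 1062 RNAs tested, so the channel genes were near the background. The extra log2 change was −2.29 in Cacna1c (SE 0.57, adjusted p = 3.82e-04), −2.49 in Kcnd3 (SE 0.74, adjusted p = 0.00314), −2.46 in Kcnma1 (SE 0.76, adjusted p = 0.00408) and −1.77 in Cacna2d1 (SE 0.67, adjusted p = 0.0207). Without differentiation library 2 all 4 missed the threshold, at adjusted p = 0.0658, 0.274, 0.207 and 0.106 in that order. Without control library 2 so did Kcnma1 (adjusted p = 0.0805) and Cacna2d1 (0.0971), and without differentiation library 1 Cacna2d1 (0.154). Kcnd3 thus had 3 and 1 Neat1 counts in differentiation and 8 and 12 in control, beside 176 and 298 other counts in differentiation and 186 and 209 in control. In Kcnq5 the Neat1 contacts, 4 and 8 in differentiation and 15 and 14 in control, gave a difference from its other contacts that did not pass (−0.27, SE 0.62, adjusted p = 0.709).

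Changes with Neat1 were also set against those of Neat1 with all its partners. Trpc4ap, Kcnmb4, Kcnq5 and Kcnd3 lay above 0 (1.92, 1.71, 1.30 and 0.29) without passing in edgeR (adjusted p = 0.156, 0.296, 0.233 and 0.925). Cacna2d1, Kcnma1 and Cacna1c lay below 0 without passing. Without control library 1 Trpc4ap stood at 4.03. Trpm7, a channel fused to a protein kinase that passes magnesium and calcium, was the 1 that passed, and was chosen after its values were seen. It had 7 and 5 Neat1 counts in differentiation and 5 and 2 in control, while Neat1 had 4959 and 5642 counts with all its partners in differentiation and 27709 and 36811 in control. Relative to Neat1 as a whole Trpm7 was higher (3.29, SE 0.73, adjusted p = 9.14e-04), the 1 higher and with none lower of 8 channel genes, against 2.77% higher and 2.08% lower of 866 partners. Against its own other contacts the difference did not pass (1.64, SE 0.77, adjusted p = 0.0610) except without control library 1 (2.33, adjusted p = 0.0307). The call rests on few counts. It was lost without differentiation library 1 (adjusted p = 0.345) or 2 (0.0861) and with replicate number as a block (0.296).

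Malat1, a nuclear RNA of splicing speckles, was joined to 10 channel genes. Its share of the channel counts was 2.10% and 2.51% in differentiation and 2.40% and 2.95% in control (difference −0.37 percentage points, exact permutation p = 0.667), so the groups overlapped. In the whole table it was 1.55% and 1.36% in differentiation and 2.51% and 2.99% in control. None of 9 tested pairs passed, against 5.99% lower and 0.0% higher of 1486 Malat1 pairs. The Cacna1c pair had 25 and 37 counts in differentiation and 69 and 83 in control (−0.73, SE 0.33, adjusted p = 0.219). The Kcnd3 pair had 9 and 22 in differentiation and 13 and 20 in control (0.44, adjusted p = 0.694), and the Kcnma1 pair 6 and 23 in differentiation and 14 and 37 in control (−0.28, adjusted p = 0.839). The Kcnq5 pair had 3 and 3 counts in differentiation and 11 and 27 in control (−2.03, SE 0.70, adjusted p = 0.103). Relative to Malat1 as a whole 0 of 6 genes passed in edgeR, against 0.288% higher and 0.433% lower of 1387 partners. Kcnd3 alone of them had an unadjusted p under 0.05 (1.27, SE 0.52, edgeR adjusted p = 0.206). Against their own other contacts 0 of 10 passed in edgeR, against 1.04% lower and 0.0% higher of 2014 RNAs, and Kcnq5 and Trpc4ap alone had an unadjusted p under 0.05 (adjusted p = 0.207 and 0.198).

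**Figure D5:**
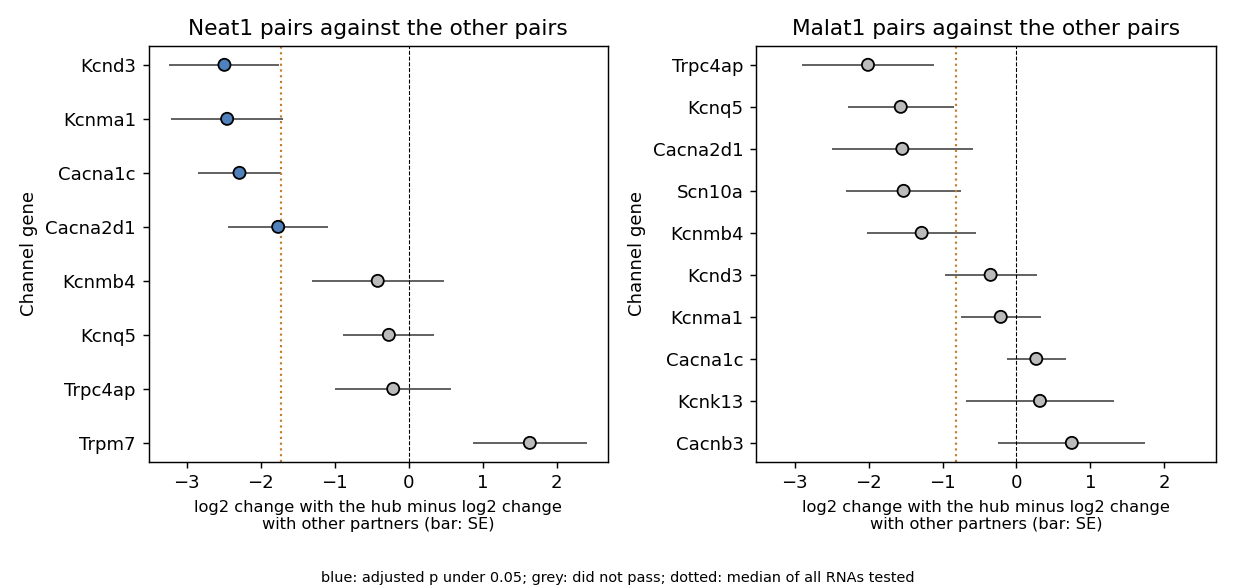
Extra log2 change of Neat1 pairs (left) and Malat1 pairs (right) of each channel gene relative to its own other pairs, with SE bars. Dotted lines are the medians over all RNAs tested, −1.73 for Neat1 and −0.82 for Malat1. In the Neat1 panel 4 genes passed and lie left of 0, while Trpm7 lies right of 0 without passing, and in the Malat1 panel none passed.

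Totals were also tested without the pairs of both nuclear RNAs. Again 1 channel gene was higher and 8 were lower of 58, against 5.13% higher and 5.89% lower of 10965 RNAs. Most channel genes had no such pair, since 9 had one with Neat1 and 10 one with Malat1. Kcnd2, Cacnb4, Kcnc2, Kcnt1, Kcnh1 and Kcnn1 had neither, so their counts were the same in both fits. Their repeated calls are therefore no further support. Cacnb3, a beta subunit with no within-RNA pair, then passed at 10.3 and 8.11 CPM in differentiation and 24.1 and 21.7 CPM in control (−1.32, SE 0.39, adjusted p = 0.0481), against −1.18 (adjusted p = 0.0690) with them. It missed the threshold without the pairs of Gm42418 and Gm26917 (−0.76, adjusted p = 0.474), with DESeq2 (0.172), with RLE scaling (0.0504) or column totals only (0.0623), and without control library 1 (0.286), control library 2 (0.223) or differentiation library 2 (0.140). Cacna2d1 no longer passed (−0.57, SE 0.18, adjusted p = 0.0683), except without differentiation library 2 (0.00277), with the replicate block (0.0365) and with the low-count filter removed (0.0471).

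Beyond Neat1 and Malat1, a few abundant RNAs recurred as partners. Gm42418 was joined to 31 channel genes, Gm26917 to 30, Slc9a9 to 30 and Shroom3, an actin-regulator gene, to 9. The median log2 change of the tested pairs was −0.09 with Gm42418, −0.99 with Gm26917 and −0.02 with Slc9a9. Medians over all partners of these RNAs are not given, so the values cannot be read as particular to channel genes. Gm26917 pairs held 147 and 281 counts in differentiation and 464 and 631 in control. Only 3 pairs joined 2 channel genes, Cacna1c with Scn10a, with Cacnb2 and with Kcnma1, and they held 2 to 8 counts over the differentiation libraries and 3 to 6 over the control libraries.

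Some channel RNAs were joined to RNAs of the same chromosome more often than RNAs of the table as a whole, and others less often. Of 295 between-RNA pairs with both partners placed, 56 (18.98%) lay on 1 chromosome, against 12.6% of the table. Without Neat1, Malat1, Gm42418, Gm26917 and Slc9a9 these were 54 of 215 (25.1%), against 19.8% of the table. Partners within 1000 kb made up 19 of the 215 (8.84%), against 8.72% of the table, which is near the background. Of the 54, 24 held Cacna1c. Its neighbours Adipor2 (156 kb away), Wnt5b (235 kb) and Wnk1 (727 kb) gave 7 and 1, 3 and 1, and 5 and 9 counts in differentiation, against 18 and 35, 15 and 12, and 12 and 10 in control, and none passed (adjusted p = 0.103, 0.132 and 0.952). Kcnip1 was joined to Ranbp17, 116 kb away, by 15 and 32 counts in differentiation and 18 and 27 in control (0.60, adjusted p = 0.486). In 3 pairs the genes overlap (Trpm6 with Gm23238, Cacna1c with Dcp1b, Kcnip1 with 4930469K13Rik), so their reads may be shared. These neighbours and the overlapping pairs were chosen after their values were seen.

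The channel genes were long, with a median of 97.6 kb against 33.0 kb over 10827 protein-coding RNAs of the table. Across the 70 genes length and summed count had a Spearman rho of 0.46, and across the 58 tested ones length and log2 change had −0.14. These points come from the same 4 libraries, and genes are not replicates.

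Other genes of ion transport were read from the same fit, in which 5.44% of all RNAs tested were higher and 6.75% lower. Among auxiliary proteins of voltage-gated channels 3 of 8 tested were lower and 0 higher, with a median of −0.38. They were Nedd4l, a ubiquitin ligase that removes channels from the surface, with 185 and 229 counts in differentiation and 450 and 583 in control (−1.02, SE 0.17, adjusted p = 0.00312), Fgf11 (−2.39, adjusted p = 0.0320) and Ank3, which anchors sodium channels (−1.14, adjusted p = 0.0348). Each of the 3 lost its call without control library 1 (adjusted p = 0.0548, 0.117 and 0.157 in that order) and without control library 2 (0.128, 0.229 and 0.358). Fgf11 also lost it without differentiation library 2 (adjusted p = 0.102), and Ank3 with column totals only (0.0602) and with between-RNA pairs only (−0.47, adjusted p = 0.366). Anion channels gave 5 lower and 0 higher of 21, among them Ano4 (−2.26, adjusted p = 2.02e-04), Lrrc8d (−1.15, adjusted p = 0.00518), Ttyh1 (−1.31, adjusted p = 0.00769) and Lrrc8b (−1.32, adjusted p = 0.0372), with a median of −0.23. Lrrc8d lost its call without control library 1 (adjusted p = 0.102) or 2 (0.103), and Ttyh1 without control library 2 (0.229) or the pairs of Gm42418 and Gm26917 (0.0540). Lrrc8b lost it under 6 settings, which were leaving out control library 1 (0.179), control library 2 (0.316), differentiation library 2 (0.137) or the pairs of Gm42418 and Gm26917 (−0.69, adjusted p = 0.463), column totals only (0.0624) and DESeq2 (0.104). None of 22 genes listed with cation channels of other families passed in edgeR, among them the release channel Itpr1 (−0.30, adjusted p = 0.245). Stim1, a store-operated calcium sensor and not itself a channel, is in that list (−0.24, edgeR adjusted p = 0.341). Nor did any of 13 glutamate receptor channels pass.

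Genes of the sperm CatSper channel gave 3 higher and 0 lower of 5 tested, with a median of 2.24. Over all RNAs tested 5.44% were higher and 6.75% lower. Catsper2 and Catsperd did not pass in edgeR (0.42 and 0.07, adjusted p = 0.707 and 0.964). Catsperg1 had 148 and 203 counts in differentiation and 33 and 58 in control (2.24, SE 0.24, adjusted p = 1.94e-04), and Catsperg2 had 139 and 182 in differentiation and 28 and 55 in control (2.25, SE 0.26, adjusted p = 3.11e-04). These are neighbouring paralogs that may share reads, so they do not count as separate evidence. Catsperb had 35 and 21 counts in differentiation and 10 and 4 in control (2.32, SE 0.62, adjusted p = 0.0307), and lost its call without control library 1 (3.23, adjusted p = 0.0992), control library 2 (1.74, adjusted p = 0.331) or differentiation library 1 (1.59, adjusted p = 0.0991).

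Markers of germ cells and of other cell types moved between the groups as well. In the same fit 5.44% of all RNAs tested were higher and 6.75% lower. Of the undifferentiated spermatogonia list 0 were higher and 3 lower of 9 tested. Its summed totals were 442 to 446 CPM in differentiation and 1081 to 1248 CPM in control. Shisa6 held the most counts of the list, with 173 and 195 in differentiation and 940 and 1267 in control. It was lower, as were Gfra1 and Foxo1, while Itga6, Zbtb16, Ret, Etv5, Thy1 and Uchl1 did not pass. Of the differentiating and meiotic list 5 were higher and 0 lower of 10, at 568 to 655 CPM in differentiation and 164 to 171 CPM in control. Those higher were Dmc1, Hormad1, Smc1b, Sycp1 and Sycp2, while Kit, Stra8, Sohlh2, Prdm9 and Tex101 did not pass. Sertoli cell markers gave 0 higher and 5 lower of 8, at 576 to 623 CPM in differentiation and 996 to 1131 CPM in control. Fibroblast markers gave 2 higher and 4 lower of 12, at 2525 to 2576 CPM in differentiation and 2603 to 2813 CPM in control, and Leydig and peritubular markers 0 of 6, at 250 to 256 CPM in differentiation and 247 to 255 CPM in control. Of the neuron and glia list 1 was lower of 5, Map2 (11 and 14 counts in differentiation, 91 and 83 in control), at 44.8 to 73.4 CPM in differentiation and 77.6 to 106 CPM in control, and none of 2 immune markers passed, at 9.18 to 56.3 CPM in differentiation and 14.5 to 17.1 CPM in control. Their part in the changes of the channel genes was not tested.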

How the data were processed

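The authors' deposited file, per its header, is a single table of counts of chimeric reads, 1 per RNA pair and library, not normalized, for 2 differentiation and 2 control libraries. Per the submitters' processing notes, STAR and the mouse build GRCm38 belong to the processing, and no role or version is stated. How chimeric reads, duplicates and reads over overlapping genes were treated is not given in the sources used here.

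Pairs and contact totals (pairs between RNAs enter 2 totals, those within an RNA 1) were tested with edgeR 4.0.16 in R 4.3.3: quasi-likelihood test, TMM scaling, filterByExpr with minimum count 5 and minimum total 10, group as the only term, two-sided, with Benjamini-Hochberg adjustment over all features and a threshold of 0.05. The fits ran over the whole table, and CPM are scaled counts. Standard errors (SE) were derived from the log2 change and the test statistic. Pairs of Neat1 or Malat1 were also tested with library size set to the summed count of that RNA's pairs, and against the other pairs of the same gene with library as a block (at least 10 counts in each kind). The scripts were tested on simulated data. Depth per library is given with the results. P-values of edgeR weigh a difference against the spread between these 2 libraries per group, which may be technical. For each feature edgeR draws that spread toward a value shared by all features of the fit. Intervals cover counting error only.

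Same-numbered libraries of the 2 groups shared a number only, so the main fits have no block. The channel genes and all lists were chosen with earlier results of these data known. Named genes are the 10 with most counts, each that passed, the one with most counts per role, the pairs that passed and the 5 largest per class, and up to 4 called genes per other list (or 2 with most counts). Kcnj3, Trpv2, Trpm7, Cacna2d2, Trpc4ap and the neighbours on a chromosome fall partly or wholly outside that rule and were chosen after their values were seen. Coordinates (1-based) and promoters are RefSeq's, on GRCm38.p6. Alternatives were other scalings, filters and tools (DESeq2 1.42.0), the replicate block, leaving out a library, Gm42418 and Gm26917 or within-RNA pairs, and an adjusted p under 0.1. Where a library was left out, its partner was taken to vary as the other group does.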

Additional observations from a re-analysis of the deposited data

How the results depend on the processing

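Of 643 checks of 59 called values, 489 kept the call and direction, 154 lost the call and 0 turned the direction. The 59 count the total of a gene separately with and without the Neat1 and Malat1 pairs. Several of these rest on the same counts, and most values without those pairs are not printed above. Leaving out control library 1 cost 34 calls, control library 2 cost 39, differentiation library 2 cost 22 and differentiation library 1 cost 7, where 1 library stands alone in its group. Kcnd2, Cacna1c, Cacnb4 and Kcnc2 held under most settings, and Kcnn1, Kcnh1 and Kcnt1, with at most 48 counts in any library, under 5 to 6 of 10 to 12. Depth also left 12 of the 70 genes untested.

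The number of channel totals higher, 1 as reported, became 2 with column totals only, 5 with the replicate block, 0 with DESeq2, 0 without the pairs of Gm42418 and Gm26917, 0 with between-RNA pairs only and 4 at an adjusted p under 0.1. The number lower, 8 as reported, became 4 with between-RNA pairs only. Without Neat1 and Malat1 pairs the number higher became 2, 5, 0, 0, 0 and 5 under those same settings, and the number lower became 5 with DESeq2, without Gm42418 and Gm26917 pairs and with between-RNA pairs only. The number of pairs higher, 4 as reported, became 1 with column totals only, 9 with the replicate block, 0 with DESeq2, 1 without Gm42418 and Gm26917 pairs and 10 at an adjusted p under 0.1. Under the replicate block 0 genes were higher relative to Neat1, against 1. The cause was not tested. Same-numbered libraries of the groups deviated together by a correlation of 0.145 over totals and 0.0176 over pairs, across features, which does not show a pairing.

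Leaving out each library in turn, channel totals gave 0 to 4 higher and 1 to 11 lower with all pairs, and the same ranges without Neat1 and Malat1 pairs. Pairs gave 1 to 6 higher and 7 to 17 lower. Relative to Neat1, 0 to 2 genes were higher, and against their own other pairs 0 to 1 were higher and 0 to 4 lower. The share of channel counts differed by −1.26 to −0.965 percentage points for Neat1, −0.645 to −0.0930 for Malat1, −0.598 to 3.59 within RNAs and −2.02 to 1.99 for other pairs, and without Cacna1c the last was 1.04 in place of −0.0150.

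Values that turned their direction had not passed, and leaving out each library gave these ranges. Totals were −0.19 to 0.44 for Trpm3, −0.20 to 0.31 for Kcnk13, −0.29 to 0.25 for Grik5 and −0.0994 to 0.72 for Grid1. Without Neat1 and Malat1 pairs they were −0.20 to 0.43, −0.63 to 0.30, −0.30 to 0.23 and −0.13 to 0.70 in that order. With between-RNA pairs only, Grik5 gave 0.61, or 0.57 without the nuclear RNAs, and Grid1 −0.79 or −0.83. Grik5 gave 0.11 or 0.0157 with column totals, and Kcnk13 without the nuclear RNAs gave 0.26 without Gm42418 and Gm26917 pairs and 0.0567 between RNAs. Pairs gave −0.74 to 0.24 within Cacnb2 and −1.18 to 0.42 for Kcnma1 with Malat1, and Kcnma1 with Gm42418 gave −0.0530 with column totals. Relative to Neat1, Cacna2d1 gave −1.48 to 0.63, Kcnd3 −0.78 to 0.96 and Kcnma1 −1.61 to 0.13, and relative to Malat1 Cacna1c gave −0.0341 to 0.18, Kcnma1 −0.47 to 1.13, Kcnmb4 −1.08 to 0.35 and Scn10a −0.0132 to 0.66. Against other pairs of the same gene, Kcnmb4 gave −1.06 to 0.49 and Trpc4ap −1.29 to 2.05 with Neat1, and Cacnb3 −0.81 to 1.60, Kcnk13 −2.45 to 2.02 and Kcnma1 −1.05 to 0.42 with Malat1.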
